A study of Mus musculus with 17 samples.

Results

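The genes described here encode the hormones of the pituitary gland and some of the proteins that make and control its cells. The 10 genes were taken from a fixed list of symbols: the hormone genes Gh, Prl, Pomc, Cga, Tshb, Lhb and Fshb, the lineage transcription factor genes Pou1f1 and Pitx1, and the receptor gene Ghrhr. All 10 were found among the 41015 genes to which the deposited transcript rows were summed. Brain RNA was sequenced in 17 libraries from mice of the C57BL/6 strain background, 6 from mice with a transgene that overexpresses HAR1A, a human long noncoding RNA, and 11 from normal control mice. The labels give no promoter or founder line for the transgene, no brain part, no age and no sex, and do not say if the libraries are from separate animals. The number in a library's name is its place in the order of deposition within its group. All 6 transgene libraries were sequenced on lane 4, together with controls 7, 8 and 11. Of the other controls, 6 were on lane 8, control 4 was on lane 2 and control 6 was on lane 6 of another flow cell.

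Assigned counts ranged from 17067407 to 22642441 per library. Levels are given as counts and as CPM, the depth-normalised count, here with the TMM correction of edgeR for composition. The neuronal gene Snap25 ranged from 2186 to 4031 CPM and the astrocyte gene Gfap from 195.8 to 869.9 CPM. Syt1, another neuronal gene, was low in all, at 2.10 to 16.2 CPM. Reads were counted per transcript row, and what share of each gene's reads was counted was not tested. The Syt1 values therefore do not show that it was less expressed than Snap25. HAR1A itself was not analysed here, and its level therefore gives no check of the labels.

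The pituitary hangs below the hypothalamus and has an anterior lobe, an intermediate lobe and a posterior lobe. Anterior lobe cells are named for their hormones: somatotropes secrete growth hormone, lactotropes prolactin, thyrotropes thyrotropin, gonadotropes the gonadotropins, and corticotropes ACTH, which is cut from the Pomc protein. Melanotropes of the intermediate lobe cut the same precursor into melanocyte-stimulating hormone. The posterior lobe consists of pituicytes and the axon ends of hypothalamic neurons that release vasopressin and oxytocin. Pitx1 acts early in all anterior and intermediate lobe cells, and Pou1f1 is needed by somatotropes, lactotropes and thyrotropes.

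The promoters of these genes are shown because the hormone genes share a feature near their start sites. RefSeq promoter sequences on GRCm38.p6 were matched for 7 of the 10 members. Gh, Pitx1 and Ghrhr had no entry. The 150 bases before the start are printed 5′ to 3′ on the strand of the gene, with the motifs searched in capitals.
Pomc promoter, chr12:3954795-3954944, plus strand: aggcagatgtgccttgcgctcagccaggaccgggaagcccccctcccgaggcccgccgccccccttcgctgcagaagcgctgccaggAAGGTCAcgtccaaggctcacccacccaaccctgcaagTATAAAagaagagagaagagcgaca
Prl promoter, chr13:27057420-27057569, plus strand: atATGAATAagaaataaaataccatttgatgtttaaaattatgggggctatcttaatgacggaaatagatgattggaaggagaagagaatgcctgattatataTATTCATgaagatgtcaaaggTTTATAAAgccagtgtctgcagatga
Cga promoter, chr4:34893629-34893778, plus strand: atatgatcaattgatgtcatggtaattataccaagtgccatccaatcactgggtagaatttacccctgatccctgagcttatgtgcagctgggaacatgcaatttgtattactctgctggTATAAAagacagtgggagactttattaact
Tshb promoter, chr3:102782715-102782864, minus strand: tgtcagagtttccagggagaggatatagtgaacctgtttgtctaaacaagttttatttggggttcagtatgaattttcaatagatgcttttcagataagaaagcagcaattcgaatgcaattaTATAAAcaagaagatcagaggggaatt
Lhb promoter, chr7:45420796-45420945, plus strand: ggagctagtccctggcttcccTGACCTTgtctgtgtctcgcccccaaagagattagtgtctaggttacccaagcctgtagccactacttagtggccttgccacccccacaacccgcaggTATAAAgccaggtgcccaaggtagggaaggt
Fshb promoter, chr2:107059652-107059801, minus strand: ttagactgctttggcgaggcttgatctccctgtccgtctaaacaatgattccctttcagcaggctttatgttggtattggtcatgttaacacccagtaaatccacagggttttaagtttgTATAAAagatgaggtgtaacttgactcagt
Pou1f1 promoter, chr16:65520362-65520511, plus strand: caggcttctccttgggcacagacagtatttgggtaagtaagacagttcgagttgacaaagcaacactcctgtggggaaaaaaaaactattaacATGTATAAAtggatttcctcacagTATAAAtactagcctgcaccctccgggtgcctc
A second Pou1f1 entry, at chr16:65523159-65523308, held none of the motifs. The motifs were searched on both strands over the 250 bases before the start. They were TATAAA (the TATA box), ATGNATA (the core of the site bound by Pou1f1), TAATCC (the core bound by Pitx proteins) and AAGGTCA (bound by Nr5a1). ATGNATA and TATAAA can overlap, as they do in the Pou1f1 promoter, and TATAAA overlaps its own reverse complement in the Prl promoter.

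All 6 hormone genes with an entry carried TATAAA on the forward strand close to the start. It began 24 bases before the start in Prl, 25 in Pomc, 27 in Tshb, 30 in Cga and Fshb, and 31 in Lhb. Of the 32851 promoters in the table, 603 (1.84%) had this motif beginning 20 to 35 bases before the start, and 12.4% had it anywhere in the 250 bases on either strand. The Pou1f1 promoter had it at 33 and at 54 bases. ATGNATA, present in 7.92% of promoters, occurred at 148 bases (forward) and 47 bases (reverse) in Prl and at 57 bases in Pou1f1. AAGGTCA, present in 4.08%, occurred at 63 bases in Pomc (forward) and at 129 bases in Lhb (reverse). TAATCC, present in 6.25%, was not among the letters of these windows. A match describes the sequence and does not show a bound site.

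Every one of the 10 genes was highest in a single library, control 7, sequenced on lane 4. Control 7 held 24193 counts of the 7 hormone genes (1123 CPM), and the other 16 libraries held between 0 and 43 counts (at most 2.15 CPM). Of the hormone counts in control 7, 88.5% were Gh. The transgene libraries ranged from 7 to 34 hormone counts, within the range of the controls other than control 7. In bulk tissue, fewer cells of a type and less RNA per cell cannot be told apart.

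**Figure D1:**
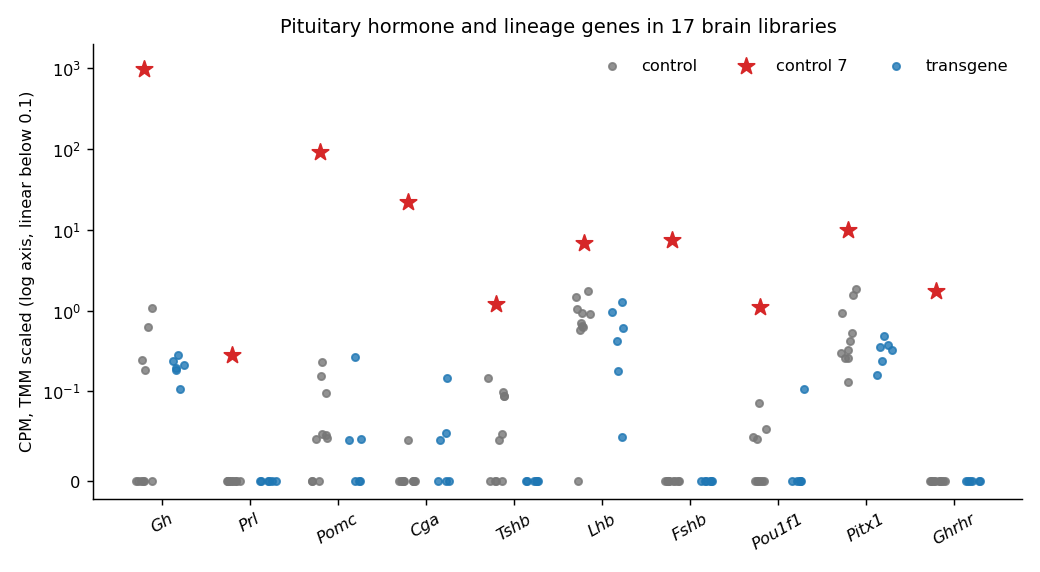
Level of each of the 10 genes in every library, in TMM-scaled CPM on an axis that is logarithmic above 0.1 and linear below it. Grey points are controls, blue points transgene libraries and the red star control 7, which lies above all other libraries for every gene, from 0.278 CPM for Prl to 994.1 CPM for Gh.

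Gh (mm10 chromosome 11, 106300271 to 106301865, minus strand) is made by somatotropes and drives body growth. Control 7 had 21416 Gh counts, or 994.1 CPM. Transgene libraries 1 to 6 had 2, 4, 4, 4, 6 and 4 counts. Among the other controls, control 4 had 21 counts (1.08 CPM), control 11 had 12, control 8 had 5, control 9 had 4 and the remaining 6 had 0. Control 7 alone carried 99.7% of all Gh counts, and its share of assigned counts was 4580 times that of the other 16 libraries pooled (exact 95% interval 3598 to 5924, counting error only). The transgene libraries fell inside the range of the other controls.

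The genes that act with Gh in its cell lineage were found nearly or wholly in the same library. Ghrhr (chromosome 6, 55376295 to 55388530), the receptor through which hypothalamic GHRH drives somatotropes, had 38 counts in control 7 (1.76 CPM) and 0 in all other libraries, at least 179-fold lower against 3 counts over those 16 libraries. Pou1f1 (chromosome 16, 65520511 to 65535005) had 24 counts in control 7 (1.11 CPM). Elsewhere it had 2 counts in transgene 3 and in control 6, 1 count in controls 3, 8 and 10, and 0 in the other 11 libraries. The share of Pou1f1 in control 7 was 48.4 times that of the rest (20.2 to 133.0). Prl (chromosome 13, 27057570 to 27065205), the lactotrope hormone that supports lactation, had 6 counts in control 7 (0.278 CPM) and 0 in every other library, at least 28.2-fold lower.

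Pomc (chromosome 12, 3954951 to 3960642), the precursor of ACTH and of melanocyte-stimulating hormone, was the next most abundant. Control 7 had 1955 counts (90.7 CPM), or 98.9% of the total. Transgene libraries 1 to 6 had 5, 0, 0, 1, 1 and 0 counts. Controls 1 to 6 had 1, 1, 0, 3, 0 and 0 counts, and controls 8 to 11 had 2, 5, 1 and 1. Arcuate neurons of the hypothalamus also express Pomc, and no library other than control 7 exceeded 0.265 CPM. The share in control 7 was 1314 times that of the pooled rest (857.2 to 2128).

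The glycoprotein hormones share the alpha subunit encoded by Cga and differ in their beta subunits. Cga (chromosome 4, 34893779 to 34907370) had 482 counts in control 7 (22.4 CPM). It had 1, 3 and 1 counts in transgene libraries 1, 2 and 4, 1 count in control 9, and 0 in the other 12. Fshb (chromosome 2, 107056140 to 107059656), the beta subunit of follicle-stimulating hormone, had 160 counts in control 7 (7.43 CPM) and 0 in all others, at least 753-fold lower. Both were therefore near or at 0 outside 1 library, whatever the group.

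Lhb and Tshb did not follow this pattern as cleanly. Lhb (chromosome 7, 45420820 to 45421897), the beta subunit of luteinizing hormone, had 148 counts in control 7 (6.87 CPM). Transgene libraries 1 to 6 had 18, 1, 8, 13, 27 and 3 counts, controls 1 to 6 had 20, 19, 0, 18, 14 and 40, and controls 8 to 11 had 13, 32, 12 and 12. Control 7 thus held 37.2% of all Lhb counts, and the groups overlapped. Tshb (chromosome 3, 102775465 to 102782718), the beta subunit of thyrotropin, had 26 counts in control 7 (1.21 CPM). It had 3 counts in control 8, 2 in each of controls 2, 5 and 10, 1 in controls 1 and 9, and 0 in controls 3, 4, 6 and 11 and in all 6 transgene libraries.

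Pitx1 (chromosome 13, 55825051 to 55836192), which also acts in hindlimb development, had 213 counts in control 7 (9.89 CPM). It was detected in every library, with 7, 10, 3, 7, 5 and 6 counts in transgene libraries 1 to 6, 8, 39, 9, 5, 6 and 3 in controls 1 to 6, and 19, 7, 33 and 5 in controls 8 to 11. Controls 2 and 10, at 39 and 33 counts, were the next highest. The share of Pitx1 in control 7 was 17.5 times that of the rest (14.2 to 21.5), and that of Lhb 8.36 times (6.77 to 10.3). These were the smallest ratios among the 7 members with a count outside control 7.

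The authors counted reads per transcript row. A row for ambiguous reads held 41.5% ± 0.92 (SD, n = 17) of the reads that were assigned, ambiguous or on no feature. Members differ in how much of their length lies in 1 row alone. All exon bases of Gh, Fshb and Pitx1 lie in a single deposited row. For Lhb 79.6% do, the rest being shared with the opposite-strand gene Ruvbl2. The shares were 30.02% for Pou1f1, 16.3% for Cga, 15.6% for Ghrhr and 14.4% for Pomc. Prl had 4 of 896 exon bases in a single row and Tshb 4 of 649. How the authors' counting treated such reads and strand is not given in the sources used. Row counts did not simply follow these bases. In control 7 the row of Cga-201, with 9 bases of its own, held all 482 Cga counts, while that of Cga-202, with 123, held 0. What share of each gene's reads was counted was not tested, so the low counts of Prl and Tshb do not show that these genes were lower than Gh.

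**Figure D2:**
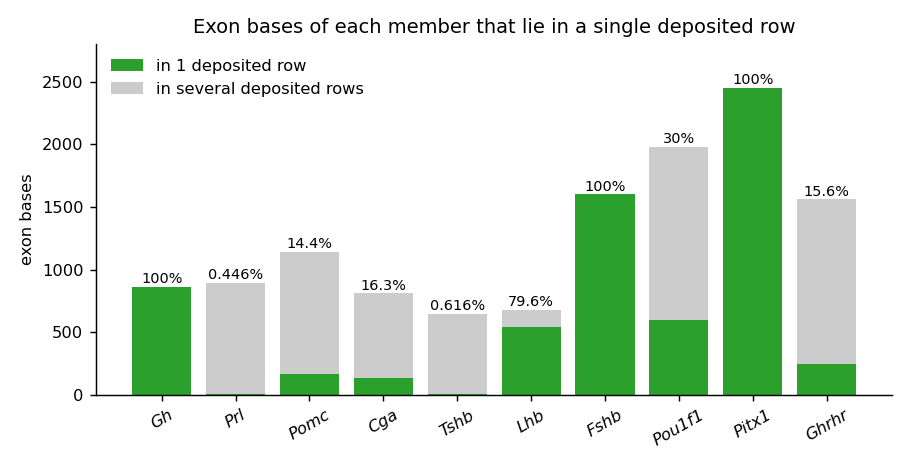
Exon bases of each gene (vertical axis) that lie in 1 deposited transcript row (green) or in several rows of either strand (grey). The percentage in 1 row is above each bar. Gh, Fshb and Pitx1 are at 100%, while Prl and Tshb are below 1%.

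Among the 4 members with a single row, levels per length could be compared within control 7. Gh stood at 1153 CPM per kilobase of exon (95% counting interval 1138 to 1169). Lhb followed at 10.1 (8.57 to 11.9), Fshb at 4.64 (3.95 to 5.42) and Pitx1 at 4.03 (3.51 to 4.61). The intervals of Fshb and Pitx1 overlapped. Those of Gh, Lhb and Fshb did not, although they cover counting error only and 1 library gives no replicate spread.

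To see which cell types the genes of control 7 belong to, 16 further lists holding 73 other genes were read in the same way. A gene was counted as standing out when it had at least 10 counts in control 7 and at least 3-fold the CPM of the next highest library. Of all features with at least 10 counts in control 7, 0.197% (36 of 18285) stood out. All 9 members with at least 10 counts did, but control 7 was picked for its hormone level, so this count is a description. Of the 73 other genes, 54 had at least 10 counts and 3 stood out: Tbx19, Gnrhr and Oacyl. Single libraries also stood out in other genes, from 0 features in control 4 to 62 in control 11.

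The corticotrope and melanotrope lists overlap, and genes of both stood out. Tbx19, the factor that turns on Pomc in both cell types, had 69 counts in control 7, 1 in transgene 1, 1 in transgene 3 and 0 in the other 14 libraries. Oacyl, placed in the melanotrope list, had 59 counts against at most 13 elsewhere. Pax7, which specifies melanotropes and also marks midbrain neurons, had 31 counts in control 7, below control 2 (88), transgene 5 (71), transgene 1 (55), control 10 (55) and control 8 (49). Of the corticotrope genes, Crhr1, the CRH receptor, was at 42.5 CPM in control 7, below the median of the other libraries. Avpr1b, the pituitary vasopressin receptor, had 8 counts. Pcsk1 of the corticotrope list, and Pcsk2 and Drd2 of the melanotrope list, did not stand out. Drd2 was at 32.5 CPM in control 7, below transgene 2 at 114.0 CPM. Pomc, Tbx19 and Pitx1 belong to both lists, so those cell types cannot be told apart by them.

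Of the 5 gonadotrope genes, 4 stood out: Lhb, Fshb, Cga and Gnrhr. Lhb, Fshb and Cga are among the hormone genes by whose summed level control 7 was picked. Gnrhr, the receptor for gonadotropin-releasing hormone, had 11 counts in control 7 and 1 in each of controls 2, 8 and 9. Nr5a1, a gonadotrope factor, had 2 counts there and 4 in transgene 1. In the thyrotrope list, Tshb, Cga and Pou1f1 stood out, and Trhr (162 counts) and Gata2 (175) were highest in control 7 but by less than 3-fold. In the list for somatotropes and lactotropes, Gh, Pou1f1 and Ghrhr stood out, and the ghrelin receptor gene Ghsr had 152 counts against at most 58. Mtnr1a, the melatonin receptor of the pars tuberalis, had 0 counts in control 7, while Tshb and Cga of that list stood out. Apart from Gnrhr, every gene that stood out in these lists is a member. Their number is therefore a description, because control 7 was picked for its hormone level.

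No gene of the posterior lobe and hypothalamic lists reached 3-fold over the next library in control 7. None of the 6 posterior lobe genes did, and their summed level, 66.2 CPM, lay inside the range of the others (20.4 to 211.3). Most of that sum in control 7 was 1 gene, Col25a1, at 53.2 CPM. The sum therefore says little about the other genes of the list. The vasopressin gene Avp had 21 counts and the oxytocin gene Oxt 4 in control 7. The highest libraries were transgene 4 for Avp (2131 counts) and transgene 1 for Oxt (626). Nkx2-1, a factor of the hypothalamus and pituicytes, had 0 counts in control 7 and in all other controls. None of the 12 hypothalamic neuron genes stood out, with Kiss1, Hcrt and Nkx2-1 at 0. Otp was highest in control 7, at 653 counts against at most 263. Of the hypothalamic releasing hormone genes, Trh (1439 counts against at most 784) and Crh (842 against at most 395) were also highest there. Their shares were 5.36 times (5.04 to 5.70) and 3.72 times (3.44 to 4.01) those of the other libraries pooled.

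**Figure D3:**
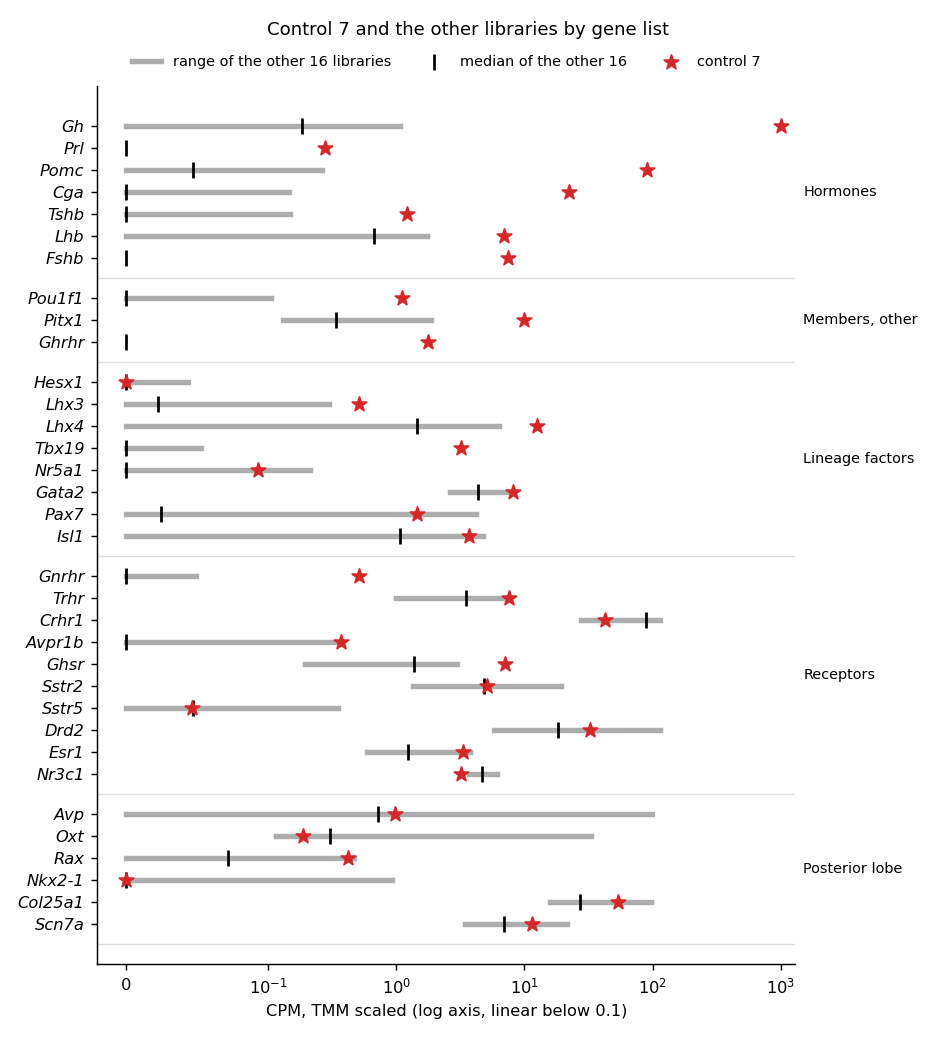
TMM-scaled CPM (horizontal axis, logarithmic above 0.1) of genes from 5 lists. The red star is control 7, the grey bar the range of the other 16 libraries and the black tick their median. The stars lie right of the bars for the hormones and other members, for Tbx19 and Gnrhr and, by less, for Lhx4 and Ghsr, and inside the bars for the 6 posterior lobe genes except Nkx2-1, which is at 0.

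Other lineage factors of the gland were also read. Lhx3 had 11 counts in control 7 against at most 6 elsewhere and Lhx4 272 against at most 122, each highest there but by less than 3-fold in CPM. Hesx1, which acts in the embryonic gland, had 0 counts. The choroid plexus list, from tissue that lines the ventricles, summed to 382.1 CPM in control 7, below the median of 1674 CPM elsewhere. The meningeal fibroblast list summed to 71.2 CPM, within the range of the others (66.7 to 160.9). Control 7 was also the highest library for Snap25 and Gfap, and the part of these differences in the hormone values was not tested.

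By the ratio to the next highest library, with 0.1 CPM added, the 10 leading named genes with at least 30 counts in control 7 were Gh (845.4), Pomc (248.6), Cga (91.3), Fshb (75.3), Tbx19 (21.6), Ghrhr (18.6), Gm14618 (15.9), Epcam (9.73), Gm14617 (8.50) and Uts2 (5.26). Epcam, an adhesion gene of epithelial cells, had 254 counts against at most 19. Gm14618 and Gm14617 are predicted genes. Uts2 encodes the vasoactive peptide urotensin. Six6, an eye and pituitary development factor, ranked next with 81 counts against at most 12 and was picked after its values were seen.

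By the correlation of log2(CPM + 0.1) over the 17 libraries, the genes most like Gh were Fshb, Gm14618, Ghrhr (each r = 0.94), Pomc (0.94) and Cga (0.93), out of 22497 genes with at least 30 counts. Pomc and Cga were also closest to Fshb, Gm14618 and Ghrhr (r = 0.97 for Pomc and 0.98 for Cga), and each had Tbx19 among its 5 closest genes. Fshb, Gm14618 and Ghrhr had counts only in control 7, so their correlations with one another are fixed by that library. Pitx1 was most like Tshb (0.89), followed by Gm38250 (0.82), Mall (0.79), Ppp2r3a (0.78) and Fshb (0.78). These values describe 17 libraries of which 1 sets most of the variance.

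Outside control 7, the few Gh counts differed by sequencing lane. All 8 other libraries of lane 4, from both groups, had between 2 and 12 Gh counts. On lane 8, 5 of 6 controls had 0 and control 9 had 4. Control 4, alone on lane 2, had 21, and control 6, alone on lane 6, had 0. The highest of the other lane 4 libraries had 0.0560% of the Gh count of control 7. Pomc had 10 counts in the 8 lane 4 libraries and 8 in the 6 of lane 8. Lane 4 held every transgene library, so outside control 7 a Gh difference between the groups and one between the lanes cannot be told apart over all libraries.

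Lhb behaved unlike the other hormones outside control 7 and followed genes of the choroid plexus. Across the 16 other libraries, an alternative chosen after control 7 was seen, the genes most like Lhb were Kl (r = 0.96), Drc7 (0.96), F5 (0.95), Ak7 (0.93) and Krt8 (0.93). Kl encodes klotho, which is abundant in choroid plexus, and Drc7 and Ak7 act in motile cilia. In log2 values, r with Ttr, the transthyretin gene that marks choroid plexus, was 0.86 and Spearman's rho 0.78.

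The lowest Lhb counts, 0 in control 3, 1 in transgene 2 and 3 in transgene 6, fell in the libraries with the least Ttr, at 45.6, 2.77 and 3.42 CPM. Controls 6 and 9 were highest in both, with 3797 and 3771 CPM of Ttr and 1.75 and 1.47 CPM of Lhb. Without control 3, transgene 2 and transgene 6, r fell to 0.79 (rho 0.61) for Ttr and from 0.96 to 0.83 (rho from 0.86 to 0.75) for Kl over 13 libraries. Over those 13, rho was 0.64 for Clic6, 0.52 for Kcnj13, 0.46 for Aqp1 and 0.38 for Otx2, the other genes of the list. Folr1 went from r = 0.69 to 0.18 (rho 0.11). In control 7 Ttr was 349.2 CPM, lower than in 13 other libraries, while Lhb was highest. Lhb shares 138 exon bases with Ruvbl2 on the opposite strand, and whether reads of that gene enter its counts was not tested.

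**Figure D4:**
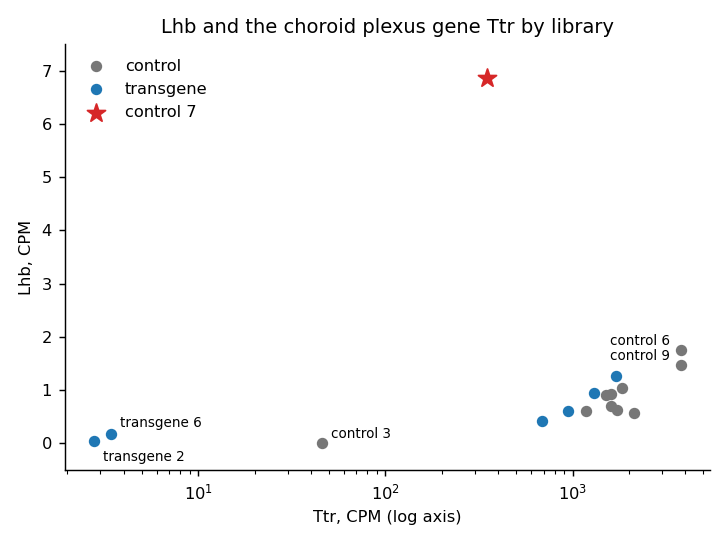
Lhb (vertical axis, CPM) against the choroid plexus gene Ttr (horizontal axis, CPM, logarithmic) in each library. Transgene 2, transgene 6 and control 3 are low in both, controls 6 and 9 are the highest of the 16 libraries without control 7, and control 7 (star) lies apart at 6.87 CPM of Lhb.

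Pitx1 without control 7 was closest to Immp1l (r = 0.83), Pou4f3 (0.80), Gm38250 (0.78), Gm33023 (0.77) and Msantd4 (0.76), none of which is on the pituitary lists. The Tshb counts in other controls also differed in kind from those of control 7. All 26 counts of control 7 were in the row of transcript Tshb-201, which has 0 bases of its own, while 9 of the 11 counts elsewhere were in Tshb-202, which has 4.

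The study compares transgene with control brains, and for these genes the comparison depended on control 7. With edgeR (quasi-likelihood F test, default filter on low counts, Benjamini-Hochberg adjustment), 47.4% of all tested features were called at an adjusted p under 0.05, with 4409 higher and 4668 lower in the transgene libraries. The filter kept 1 of the 10 members, Lhb, which was not called. Transgene libraries had 0.578 ± 0.465 CPM of Lhb (SD, n = 6) against 1.41 ± 1.87 CPM in the 11 controls. The edgeR log2 fold change was -1.27 with an SE of 0.71 (adjusted p = 0.149). Without control 7 it was -0.56 ± 0.53 (edgeR adjusted p = 0.404).

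Within lane 4, with 6 transgene libraries against controls 7, 8 and 11, edgeR called 25.6% of features, and again only Lhb passed the filter, with a log2 fold change of -2.23 ± 0.84 (adjusted p = 0.0745). With DESeq2, where 21.5% of features were called, Lhb was called lower (-2.26, adjusted p = 0.0378). It was also called with edgeR without control 8 (-2.70, adjusted p = 0.0377), where 24.0% of features were. Without control 7 it was -0.11 ± 0.80 (edgeR adjusted p = 0.943).

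The exact two-sided permutation test over libraries (12376 splits) on mean log2(CPM + 0.1) gave every member a value. It called 27.2% of 36207 features after adjustment and none of the 10 members, nor any member at an unadjusted p under 0.05, where 36.4% of features lay. Prl, Fshb and Ghrhr had counts only in control 7, so this test could not call them, whatever their level there. The same holds for them within lane 4. The largest differences were -0.98 for Pomc (exact p = 0.563), -0.91 for Pitx1 (0.193), -0.87 for Lhb (0.236) and -0.83 for Tshb (0.0659, adjusted 0.170). Gh differed by -0.52 (exact p = 0.891). Without control 7, Gh differed by 0.60 and Cga by 0.36 in the other direction, 29.8% of features were called, and the exact p was 0.327 for Gh, 0.0357 for Cga (adjusted 0.0991) and 0.0395 for Tshb (adjusted 0.108). Within lane 4 the differences were larger, -4.40 for Gh (exact p = 0.0238, adjusted 0.135), -3.31 for Pomc (0.0952), -2.19 for Cga (0.333) and -1.92 for Pitx1 (0.0595). Gh was the 1 member with an unadjusted p under 0.05 there, where 23.0% of features lay. The smallest p this test can give within lane 4 is 0.0119, and 0 features were called after adjustment.

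With no filter on low counts, edgeR called 27.8% of features over all libraries, 12.4% lower in transgene. Among the members, Gh (log2 fold change -8.70 ± 2.79, adjusted p = 0.0227), Pomc (-6.94 ± 2.37, adjusted p = 0.0319) and Tshb (-4.73 ± 1.63, adjusted p = 0.0390) were called lower. In pooled counts Gh was 21458 in controls against 24 in transgene libraries, and Pomc 1969 against 7. Tshb was 37 against 0, at least 7.03-fold higher in controls against 3 counts over the transgene libraries. Fshb had 160 counts against 0 (at least 30.4-fold), Ghrhr 38 against 0 (at least 7.22-fold) and Prl 6 against 0 (at least 1.14-fold), and these were not called.

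Leaving out control 7, chosen after that library was seen, ended the Gh and Pomc calls. Gh then had 42 counts in 10 controls and 24 in transgene libraries, with a ratio of 1.11 (exact 95% interval 0.659 to 1.92) and a log2 fold change of -0.06 ± 0.86 (edgeR adjusted p = 0.963). Pomc had 14 and 7 counts, a ratio of 1.27 (0.481 to 3.73). Tshb was the 1 member still called, with 11 counts in the controls and 0 in transgene libraries, at least 2.33-fold higher (edgeR adjusted p = 0.0300). Of those 11 counts, 8 were on lane 8, which holds no transgene library, and 3 on lane 4. A Tshb difference between the groups and one between the lanes thus cannot be told apart over all libraries. Of features, 30.3% were called in that fit. Cga had 1 count in the controls against 5, a transgene to control ratio of 7.86 (0.879 to 371.6). Pitx1 had 134 counts against 38, and its log2 fold change of -1.02 ± 0.52 was not called (edgeR adjusted p = 0.146). With control 7 in, the Pomc call was also lost on leaving out transgene 2, 3, 4, 5 or 6, with edgeR adjusted p between 0.0599 and 0.0642 and log2 fold changes between -6.88 and -6.69. The Tshb call was lost on leaving out any of the 6 transgene libraries (edgeR adjusted p at most 0.0637).

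Within lane 4 and without the filter, 13.3% of features were called, 6.04% lower, and 8 of the 10 members were called lower, all but Prl and Lhb. The Pou1f1 call (edgeR adjusted p = 0.0472) was lost in 7 of 9 cases when 1 library was left out, control 7 or any transgene library. Over all 9 cases the edgeR adjusted p was between 0.0174 and 0.899. The Ghrhr call (edgeR adjusted p = 0.0483) was lost on leaving out any of the 6 transgene libraries, with adjusted p up to 0.0725. Gh fell by 10.63 ± 1.78 (edgeR adjusted p = 0.000994), Pomc by 8.85 ± 1.63 (0.00203) and Pitx1 by 3.50 ± 0.75 (0.00574) on the log2 scale. Pooled over the lane, Cga had 482 counts in controls against 5 (ratio 195.6, exact 95% interval 83.2 to 605.1) and Pou1f1 25 against 2 (ratio 25.4, 6.32 to 220.9). With 0 counts in the transgene libraries, Fshb was at least 108-fold higher in the lane 4 controls, Ghrhr at least 25.7-fold and Tshb at least 19.6-fold. Without control 7, which leaves controls 8 and 11, none of the 7 members that still had counts was called, against 11.4% of features. Gh was then -1.06 ± 0.60 (edgeR adjusted p = 0.324) and Pitx1 -0.89 ± 0.58 (0.414). Prl, Fshb and Ghrhr had no count left in any library. DESeq2, which replaces counts it takes as outliers, set the Gh count of control 7 from 21416 to 3 over all libraries and gave a log2 fold change of -0.00. It also set the control 7 count of Pomc from 1955 to 1, and those of Cga, Tshb, Fshb, Pou1f1 and Ghrhr to 0. DESeq2 therefore did not test these members on their control 7 counts over all libraries. It called 35.7% of features and, of the members, Pitx1 (-2.20, adjusted p = 0.0235), whose count was not replaced. Those of Prl and Lhb were not replaced either, and within lane 4 no member's count in control 7 was. With a factor for lane and flow cell and no filter, edgeR called 14.6% of features, 6.5% lower, and the same 8 members as within lane 4. All transgene libraries are on lane 4, so that fit too compares them with controls 7, 8 and 11.

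**Figure D5:**
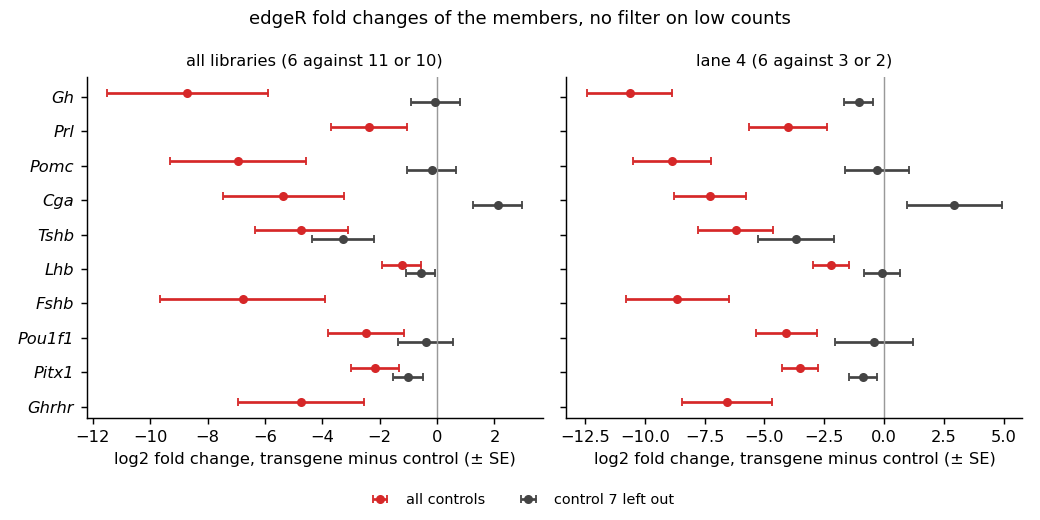
Log2 fold change, transgene minus control, of each gene with its SE (edgeR, no filter on low counts), over all libraries (left) and within lane 4 (right). Red points use all controls and dark points leave out control 7, where Gh moves from -8.70 to -0.06 over all libraries and Prl, Fshb and Ghrhr have no value.

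Other genes of the hypothalamic and pituitary axis were also tested between the groups with the default filter. They are given here against 47.4% of features called over all libraries and a median log2 fold change of -0.05 over all tested. Of 10 pituitary receptor genes, 7 were tested, 3 were higher (Sstr2 2.19 ± 0.25, Drd2 2.17 ± 0.24, Esr1 0.89 ± 0.31) and Crhr1 was lower (-1.19 ± 0.17). These receptors, for somatostatin, dopamine, oestrogen and CRH, are also used by brain neurons. Among 8 genes of hypothalamic releasing and inhibiting signals, 6 were tested and 2 were higher. They were somatostatin, Sst (1.55 ± 0.19), and Avp (5.79 ± 1.01), whose counts lay mostly in transgene libraries 1 and 4.

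Of the 4 prohormone processing genes, 3 were higher: Pcsk2 (1.36 ± 0.12), Cpe (0.96 ± 0.12) and Pcsk1 (0.40 ± 0.11), which cut and trim peptide precursors in neurons as well as in endocrine cells. Of 8 genes for receptors of pituitary hormones, 7 were tested and 1 was higher, the melanocortin receptor gene Mc3r (0.98 ± 0.35). Fshr, the receptor for follicle-stimulating hormone, had 0 counts in all libraries. Among 10 other lineage factors, 4 were tested. Isl1, also used by striatal and motor neurons, was higher (1.76 ± 0.50). Lhx4, also used by hindbrain and spinal neurons, was lower (-5.40 ± 0.81), with 10 counts in transgene libraries and 867 in controls, of which 272 were in control 7.

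In the posterior lobe list, Avp, Col25a1 (1.54 ± 0.21) and Scn7a (0.98 ± 0.25) were the 3 tested genes, and all 3 were higher. Of 5 tested tanycyte genes 4 were higher, Crym (2.92 ± 0.56), Lhx2 (2.53 ± 0.52), Col25a1 and Dio2 (0.59 ± 0.11), the last of which activates thyroid hormone. Rax, on both the tanycyte and the posterior lobe list, did not pass the filter. Which cells the counts of these lists come from was not tested. Of 4 tested hypothalamic neuron genes, 3 were higher: Npy (2.24 ± 0.26), Tac2 (1.85 ± 0.45) and Cartpt (0.80 ± 0.32). Nkx2-1 had 53 counts over the transgene libraries and 0 in the controls. One of 6 tested choroid plexus genes, Otx2, was lower (-1.42 ± 0.55), as were 2 of 5 meningeal genes, Dcn (-0.62 ± 0.22) and Lum (-0.61 ± 0.21).

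Within lane 4, where 25.6% of features were called, the calls of Sstr2 (1.90 ± 0.16), Drd2 (1.70 ± 0.30), Sst (1.09 ± 0.21), Pcsk2 (1.29 ± 0.14), Cpe (0.81 ± 0.12), Npy (2.17 ± 0.29), Crym (2.94 ± 0.65), Lhx2 (2.40 ± 0.37), Dio2 (0.67 ± 0.13) and Col25a1 (1.07 ± 0.30) held, as did those of Crhr1 (-0.85 ± 0.24) and Lhx4 (-6.22 ± 0.80). The other 11 were not called there. Their edgeR log2 fold changes were 4.89 ± 2.02 for Avp, 1.60 ± 0.55 for Mc3r, 1.01 ± 0.45 for Tac2, 0.89 ± 0.63 for Isl1, 0.64 ± 0.40 for Scn7a, 0.37 ± 0.15 for Pcsk1, 0.26 ± 0.46 for Esr1 and 0.08 ± 0.43 for Cartpt. Those of Otx2, Dcn and Lum were -0.86 ± 0.92, -0.63 ± 0.35 and -0.17 ± 0.25.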

How the data were processed

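RNA-seq of mouse brain gave 17 libraries, 6 transgene and 11 control. The values deposited by the authors are raw read counts for 68517 transcript rows. Reads were placed on mm10, per the submitters' processing notes. Aligner, counting program, strand setting and gene models are not stated. The 5 last rows name no feature and stayed out of library sizes and tests. Shares were taken over the reads that were assigned, on several features or on none. Those on several features made up 40.2% to 43.4% and those on none 5.29% to 11.1%. Reads in the remaining last rows are not in these totals.

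Rows were matched by transcript name to GENCODE M21 (64380 of 64505 matched, 62415 with the same version) and summed to genes, giving 45147 features with the unmatched and assembled rows. Tests used edgeR 4.0.16 (quasi-likelihood F test, TMM, R 4.3.3) over all libraries and within lane 4, and an exact permutation test of log2(CPM + 0.1), both adjusted over all features at a threshold of 0.05. DESeq2 1.42.0, other scalings, filters, pseudocounts, lane as a factor and leaving out each library were the alternatives. The edgeR procedure was tested on simulated counts and the permutation test on simulated normally distributed values, which lack the zeros of these genes. Shares have exact 95% intervals, a count of 0 allows up to 3 counts, and both cover counting error only. The labels do not say that libraries are separate animals, so a p-value reflects only the spread of these libraries, which may be technical.

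Members and lists were chosen with earlier results of these data known, and a few list genes are not reported here. Named genes are all members, called list genes (at most 6 a list), list genes at 0, the 10 named genes leading in the library with the most hormone counts, and the 5 closest by correlation for members with at least 100 counts.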

Additional observations from a re-analysis of the deposited data

Results flagged for a closer look

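In the 6 transgene libraries, a single sample lay far from the rest for 3 members. Pomc was 0.265 CPM in transgene 1 (5 counts) with at most 1 count in the others. Cga was 0.146 CPM in transgene 2 (3 counts) with at most 1 count in the others. Pou1f1 was 0.105 CPM in transgene 3 (2 counts) with 0 in the others. For normally distributed values, chance alone marks about 1 in 20 groups this way. That rate does not hold for counts near 0 such as these. A gene with counts in only 1 library of the group, as Pou1f1 here, is always marked. Each of the 3 rests on 2 to 5 counts. The 11 controls were too many for the same rule, so control 7 was not judged by it.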

How the results depend on the processing

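The number of genes called was 9077 over all libraries and 5887 when lane and flow cell were a factor, and the cause was not tested. With scaling by library size only it was 9867 (3511 higher, 6356 lower, against 4409 and 4668), where the median over all genes was -0.16 on the log2 scale in place of -0.05. Leaving out 1 library gave 8179 to 9550 calls over all libraries and 3712 to 4863 within lane 4, and 0 members called by the permutation test in each case. Leaving out control 7 turned the direction of the permutation difference of Gh and Cga. The edgeR log2 fold change without a filter turned for Cga only, while that of Gh stayed negative, at -0.06 over all libraries. The permutation difference ranged from -0.73 to 0.60 for Gh and from -0.53 to 0.36 for Cga over the left-out libraries. For Cga without a filter, the edgeR log2 fold change ranged from -6.23 to 2.11 over all libraries and from -8.13 to 2.93 within lane 4. In each range the positive end is the value without control 7. For single members, 15 values under alternatives passed the threshold where the reported one did not, and 36 no longer passed it. The lane factor, without a filter, called Cga, Fshb, Pou1f1, Pitx1 and Ghrhr lower over all libraries. No paired analysis was possible because the labels give no replicate numbers and the numbers used here only name libraries. Outside control 7 Gh had 0 to 21 counts a library, and the exact 95% interval of the control to transgene ratio, 0.659 to 1.92, gives the precision of that comparison for counting error only.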
